A study of Mus musculus with 12 samples.

Results

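Human glucocorticoid receptor beta (hGRB), carried into the liver by an adeno-associated virus (AAV-hGRB), was compared with both control treatments of the same experiment taken as 1 group. All 12 arrays of the series enter: 4 AAV-hGRB samples against 8 controls, of which 4 received a virus carrying green fluorescent protein (AAV-GFP) and 4 received saline (PBS). All groups, controls included, were livers of male C57BL/6 mice aged 3 months that lack the glucocorticoid receptor (GR) in the liver, so there was no liver with intact GR. The genes of interest are those that differed from AAV-GFP and from PBS in the same direction. Of 26605 probes tested, 7371 (27.7%) were higher and 11009 (41.4%) lower than both control means, and 8 probes (0.0301%) passed the test against the pooled controls, all of them higher. The excess of lower probes depends on the processing: 41.2% of probes were above the pooled controls here, and 48.7% with quantile normalization. The share was 33.3% without a filter on dim probes, and 57.1% with normexp, a model-based correction of the raw spot signals. The labels used here give neither the driver that removed GR nor the vectors' promoter and dose, nor the time between injection and collection. They also do not tie each sample to a separate animal, so a p-value measures the spread among samples, which may be technical.

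GR beta is a splice form of the glucocorticoid receptor whose altered C-terminus does not bind glucocorticoids, and it is best known as an inhibitor of GR alpha. A liver without GR alpha leaves room to ask what it does on its own, which is the question the series title poses. Most of the genes described here belong to the interferon response. Interferons bind receptors on the cell surface, the kinases Jak1 and Tyk2 phosphorylate STAT proteins, and these join Irf9 in a complex that binds the interferon-stimulated response element (ISRE) in promoters. The induced genes encode sensors of viral RNA and DNA, factors that cleave or block foreign RNA, the ubiquitin-like protein ISG15 and Irf7, which amplifies the response. In hepatocytes and Kupffer cells this programme is part of the defence against hepatotropic viruses.

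Levels are log2 intensity minus the 75th percentile of the array, so 0 is the level of that percentile, and a difference of 1 is a 2-fold change. Between 54.9% and 66.4% of probes were well above background per array, and the number of arrays limits the precision: the median standard error of a difference was 0.27. AAV-GFP replicate 3 was the dimmest array, with a 75th percentile of 7.71 on the log2 scale against 8.45 to 9.22 on the other arrays. Within groups, arrays correlated at 0.911 to 0.984 over probes, and no array repeated another. The highest correlation of any pair was 0.986, between arrays of different groups. Markers of hepatocytes were bright on all arrays (list mean 7.99 to 8.36). The targeted gene Nr3c1 read 0.49, 0.27, 0.58 and 0.28 in AAV-hGRB against 0.05 to 0.49 in the controls on its brightest probe; the files do not say whether a probe reads the deleted part or the human transgene, so this checks neither. The arrays lay on 6 slides, and only slides 5 and 6 held AAV-hGRB (replicates 1 and 3) beside controls, so for replicates 2 and 4 slide and group cannot be told apart.

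The promoters of genes that stood above all controls are shown first, because the ISRE is the sequence through which the interferon response acts. RefSeq promoter windows (build GRCm38.p6, 250 bases before to 50 after the start) were matched for 11291 of the 18890 genes tested. Printed are the 250 bases before the start, 5′ to 3′ on the strand of the gene, with ISRE matches in capitals: GAAA, any 2 bases and GAAA again, or the same on the other strand, where it reads TTTC, 2 bases and TTTC. Isg15 (chr4:156200819-156201068, minus strand) holds 3 overlapping matches, the nearest beginning 66 bases before the start. Ifit1 (chr19:34640639-34640888, plus strand) holds 2, at 104 and 85 bases, and Trim30a (chr7:104465194-104465443, minus strand) 1, at 36 bases. Another Trim30a window (chr7:104446126-104446375), not printed, holds none. Irf7 (chr7:141266425-141266674, minus strand) and Ddx58 (chr4:40239826-40240075, minus strand) are genes with a called probe and no match in these bases. The same holds for Samd9l, Fbxo39, Ifi44 and Ifih1, not printed. Oasl2, Cmpk2, Oasl1, Adar and Eif2ak2, above all controls but not called, hold no match there either.
Isg15: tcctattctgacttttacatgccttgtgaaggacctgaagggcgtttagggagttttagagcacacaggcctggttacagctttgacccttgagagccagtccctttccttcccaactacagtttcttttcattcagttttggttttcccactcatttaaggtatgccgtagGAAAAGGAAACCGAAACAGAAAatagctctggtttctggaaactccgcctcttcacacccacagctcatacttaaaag
Ifit1: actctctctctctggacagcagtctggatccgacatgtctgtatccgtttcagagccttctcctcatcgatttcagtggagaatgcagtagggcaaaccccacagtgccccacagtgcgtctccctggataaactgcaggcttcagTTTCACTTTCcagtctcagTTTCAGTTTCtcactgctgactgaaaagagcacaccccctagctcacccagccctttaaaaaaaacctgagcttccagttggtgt
Trim30a: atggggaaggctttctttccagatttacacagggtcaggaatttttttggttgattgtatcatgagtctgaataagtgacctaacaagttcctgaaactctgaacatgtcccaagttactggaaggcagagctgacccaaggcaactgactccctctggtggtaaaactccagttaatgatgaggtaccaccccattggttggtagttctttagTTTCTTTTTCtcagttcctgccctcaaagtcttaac
Irf7: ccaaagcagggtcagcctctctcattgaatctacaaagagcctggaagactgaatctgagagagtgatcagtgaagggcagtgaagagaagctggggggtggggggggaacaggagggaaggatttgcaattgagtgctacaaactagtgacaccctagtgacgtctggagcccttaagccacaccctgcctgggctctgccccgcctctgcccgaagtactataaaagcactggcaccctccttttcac
Ddx58: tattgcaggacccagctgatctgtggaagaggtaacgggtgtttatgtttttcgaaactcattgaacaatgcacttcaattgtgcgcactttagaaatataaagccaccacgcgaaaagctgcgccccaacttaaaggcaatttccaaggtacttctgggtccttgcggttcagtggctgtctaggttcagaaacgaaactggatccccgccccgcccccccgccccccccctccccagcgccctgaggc

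Among the 71 genes with all 4 AAV-hGRB arrays above all 8 controls, 47 had a window and 18 of these (38.3%) held an ISRE, against 3 of 48 (6.25%) of the genes below all controls and 444 of 11291 (3.93%) of all genes tested. Of the 6 genes with a called probe and a window, 2 held one, both after the start: Ddx58 at base 3 and Ifih1 at base 33. The GAS element TTCNNNGAA, another motif of interferon-responsive promoters, was in 9 of 47 (19.1%) windows of the genes above, 4 of 48 (8.33%) of those below and 972 of 11291 (8.61%) of all genes tested. The palindromic glucocorticoid response element was in 0 of the 47 and 0 of the 48 windows, and in 2 of 11291 of all genes tested. Both strands were searched, each motif was counted whether or not it overlapped another, and a match is a description of the letters, not of binding.

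The 8 probes called higher read 8 genes of the antiviral interferon response or of little-known function: BC013672, Samd9l, Fbxo39, Usp18, Ifi44, Ddx58, Ifih1 and Irf7. On each called probe, all 4 AAV-hGRB arrays lay above all 8 controls. The AAV-hGRB arrays that share a slide with controls differed from them by 0.96 to 4.42 within slide 5 and by 1.67 to 4.19 within slide 6.

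Irf7, the transcription factor that drives interferon alpha genes and amplifies the response, read 1.32, 3.01, 3.73 and 1.91 on AAV-hGRB arrays 1 to 4. Its controls read -0.27, 0.44, -0.08 and -0.08 with AAV-GFP and 0.17, 0.17, -0.30 and 0.27 with PBS. The AAV-hGRB arrays and the controls do not overlap, and replicates 2 and 3 stand highest. Irf7 rose by 2.45 (SE 0.36, 5.47-fold; limma adjusted p = 0.0358), at 2.49 against AAV-GFP and 2.41 against PBS (probe at mm7 chr7:137682028-137682378). Usp18, the protease that removes ISG15 from proteins and restrains interferon signalling, read 1.85, 3.67, 3.50 and 2.52 in AAV-hGRB. With AAV-GFP it read 0.80, 1.03, 0.00 and 0.80, and with PBS 0.45, 0.73, 0.15 and 0.71, so no control came near the AAV-hGRB arrays. It rose by 2.30 (SE 0.32, 4.93-fold; limma adjusted p = 0.0338; mm7 chr6:121295796-121295855).

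Ifih1 and Ddx58 encode MDA5 and RIG-I, the cytosolic sensors of viral double-stranded RNA. The called Ifih1 probe (mm7 chr2:62537605-62539752) read -1.77, -1.19, -1.52 and -2.41 in AAV-hGRB, between -3.68 and -2.90 in AAV-GFP and between -3.49 and -3.27 in PBS. Its rise was 1.55 (SE 0.22, 2.92-fold; limma adjusted p = 0.0348). The brighter Ifih1 probe differed by 0.86 (limma adjusted p = 0.522), with the same sign and below the threshold. It overlapped the controls, with AAV-hGRB replicate 1 at 2.42 and PBS replicate 4 at 2.66, and within slide 5 it differed by -0.04. The called Ddx58 probe (mm7 chr4:40367958-40368017) read -3.42, -2.69, -3.33 and -3.87 in AAV-hGRB and was not well above background on any control, where it read -6.04 to -4.45. It therefore passed the filter on dim probes through AAV-hGRB alone, so its p-value describes and does not test. Its measured rise was 1.90 (SE 0.27; limma adjusted p = 0.0338). As a bound, the AAV-hGRB mean stood at least 3.41-fold above the lowest level that counts as well above background on the control arrays, or the probe's own value where that was higher. The 4 tested Ddx58 probes differed by 0.89 to 1.90, and the brightest by 1.54 (limma adjusted p = 0.0992).

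Ifi44, an interferon-induced cytoplasmic protein, was measured on a dim probe, with only 2 of 8 controls well above background. The probe met the filter on dim probes only through the AAV-hGRB arrays, so its p-value describes and does not test. This probe (mm7 chr3:151646308-151646367) read -1.78, -1.38, -1.38 and -3.62 in AAV-hGRB, -4.92, -6.80, -5.52 and -4.77 in AAV-GFP and -6.22, -4.40, -5.64 and -5.60 in PBS. The measured rise was 3.44 (SE 0.48; limma adjusted p = 0.0338). On its brighter probe, well above background on all arrays, the difference was 2.85 (SE 0.46, 7.22-fold; limma adjusted p = 0.0556). Samd9l, an antiviral and growth-restraining protein (mm7 chr6:3325839-3325898), read -2.19, -1.18, -1.52 and -2.45 in AAV-hGRB against -3.86 to -3.27 in AAV-GFP and -3.92 to -3.42 in PBS. It rose by 1.83 (SE 0.23, 3.55-fold; limma adjusted p = 0.0247).

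The probe that the array design names Fbxo39 (mm7 chr11:72388201-72390214) read 1.12, 2.50, 2.00 and 1.24 in AAV-hGRB, -0.31, -0.46, 0.05 and -0.03 in AAV-GFP and -0.77, -0.29, -0.24 and -0.05 in PBS. Its rise was 1.97 (SE 0.25, 3.93-fold; limma adjusted p = 0.0247). The name rests on the design alone: RefSeq gives the synonym Fbox39 to the neighbouring interferon-induced gene Xaf1, which no probe here is named for. BC013672 is a clone name that the naming rule skips, given here after its values were seen. Its called probe (mm7 chr8:60363755-60363814) read -2.00, -0.91, -1.41 and -2.56 in AAV-hGRB and -5.85 to -3.99 in the controls, of which 1 of 8 was well above background. This probe too met the filter on dim probes only through the AAV-hGRB arrays, so its p-value describes and does not test. Its measured rise was 3.16 (SE 0.37; limma adjusted p = 0.0247), at least 8.73-fold against PBS, and its brighter probe differed by 1.80 (SE 0.37; limma adjusted p = 0.208). Which exon or UTR the probes read is not analysed here.

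**Figure D1:**
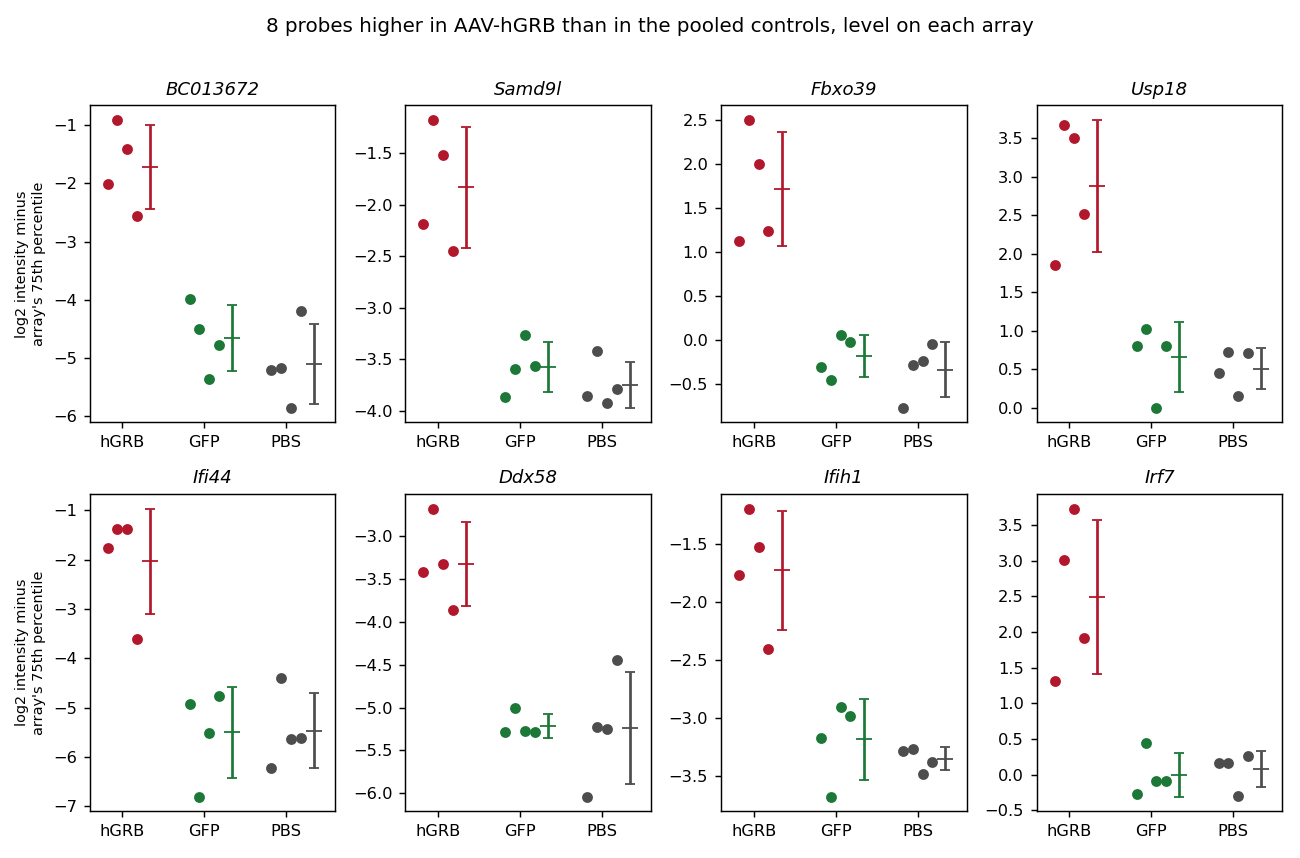
Level of the 8 called probes on each array, on the log2 scale relative to the 75th percentile (vertical axis, own scale per panel), for AAV-hGRB, AAV-GFP and PBS. Points are arrays, and the bar beside each group is the mean with its SD over 4 arrays. In every panel the 4 AAV-hGRB points lie above the 8 control points, and AAV-hGRB replicates 2 and 3 are usually the highest.

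No probe was called lower: the lowest limma adjusted p in that direction was 0.209, while 743 probes (2.79%) were lower and 833 (3.13%) higher at an unadjusted p under 0.05. The lower and higher counts were 248 and 710 without AAV-hGRB replicate 3, 1206 and 1599 without AAV-GFP replicate 3, 1381 and 885 without a filter on dim probes, and 291 and 393 with normexp background correction. When each control was tested alone, limma called 0 probes against AAV-GFP, 0 against PBS and 0 between the controls, with 893 (3.36%), 1555 (5.84%) and 448 (1.68%) probes at an unadjusted p under 0.05. Requiring a difference from both controls by the larger of the 2 p-values also gave 0 calls (lowest limma adjusted p = 0.333), with 329 probes (1.24%) higher and 108 (0.406%) lower at an unadjusted p under 0.05. The count of 8 depended on single arrays. It was 1, 0, 24 and 0 without AAV-GFP replicates 1 to 4, 5, 0, 0 and 18 without AAV-hGRB replicates 1 to 4, and 0, 0, 1 and 2 without PBS replicates 1 to 4. With slides as fixed blocks it was 0 (lowest limma adjusted p = 0.858), with slides as a random block 8. All 8 differences stayed positive under all 21 or 22 alternatives run for each, and each probe passed the threshold in 5 to 13 of them. With normexp, Irf7 (2.10), Usp18 (2.04) and Fbxo39 (1.57) passed. Samd9l stood at 0.80 and did not pass, nor did Ifih1 at 0.69, Ifi44 at 1.06, BC013672 at 1.01 or Ddx58 at 0.54, so the sizes given for these 5 depend on the background correction.

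Beyond the called probes, the same naming rule gives 5 more genes that were above all controls and just missed the threshold, with Ifi44 on its brighter probe. Trim30a, a TRIM protein that restrains NF-kB signalling, read 0.89, 2.15, 1.36 and 0.51 in AAV-hGRB and -1.41 to 0.00 in the controls (difference 2.04, SE 0.31; limma adjusted p = 0.0524). Its dimmer probe differed by 1.30 (SE 0.36, limma adjusted p = 0.489) and overlapped the controls. Rtp4, an interferon-induced chaperone of receptors, read 4.55, 5.86, 5.65 and 4.32 against 2.79 to 3.74 (1.86, SE 0.29; limma adjusted p = 0.0538). Isg15 read 3.54, 5.42, 4.81 and 3.58 against 1.57 to 2.77 (2.18, SE 0.35; limma adjusted p = 0.0538). In these 3 genes AAV-hGRB replicate 2 was the highest array and replicates 1 and 4 the lowest. The array design places the Isg15 probe on chromosome 17 of mm7, while the RefSeq gene lies on chromosome 4, so its value may include a related sequence. Oasl1, a 2′-5′-oligoadenylate synthetase-like protein, differed by 1.66, and Adar, which edits adenosine in double-stranded RNA, by 0.97 (limma adjusted p = 0.0538 for both). Adar had little spread among the controls (0.01 to 0.19), and its AAV-hGRB arrays read 0.82, 1.37, 1.33 and 0.76. The dimmer Adar probe differed by 0.64 (SE 0.25, limma adjusted p = 0.78) and overlapped the controls.

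The interferon-induced lists together held 83 genes. Of these 77 were on the array and 75 tested, 0 of which lacked a control array well above background. Some met the filter on dim probes only through the AAV-hGRB arrays, such as Oas3 and Mx1, each with 3 of 8 controls well above background. In 73 of 75 the difference from the pooled controls was positive, against 36.3% of all 18890 genes tested. All 4 AAV-hGRB arrays were above all 8 controls for 25 (33.3%), against 0.376% of all genes, and 3 were called at their brightest probe (Irf7, Usp18 and Samd9l), against 0.0212%. The median difference was 0.98 beside -0.08 for all genes, at 1.00 against AAV-GFP and 0.97 against PBS, which share the AAV-hGRB arrays, and 0.10 for AAV-GFP against PBS. Lists and members were chosen with earlier results of these arrays known, so these counts describe and do not test.

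The mean of the 75 genes was 2.26, 3.19, 3.05 and 2.23 on AAV-hGRB arrays 1 to 4, 1.46, 1.67, 1.84 and 1.65 with AAV-GFP, and 1.16, 1.67, 1.66 and 1.76 with PBS. No control reached the lowest AAV-hGRB array, and replicates 2 and 3 stood well above replicates 1 and 4. Of the 25 genes above all controls, replicate 2 was highest for 20 and replicate 3 for 5, while replicate 1 was lowest for 14 and replicate 4 for 11. Their median distance from the control mean was 1.05, 2.62, 2.21 and 1.25 on replicates 1 to 4. Within slide 5, which holds replicate 1, the median difference over the 75 genes was 0.51, and within slide 6, which holds replicate 3, it was 1.27.

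**Figure D2:**
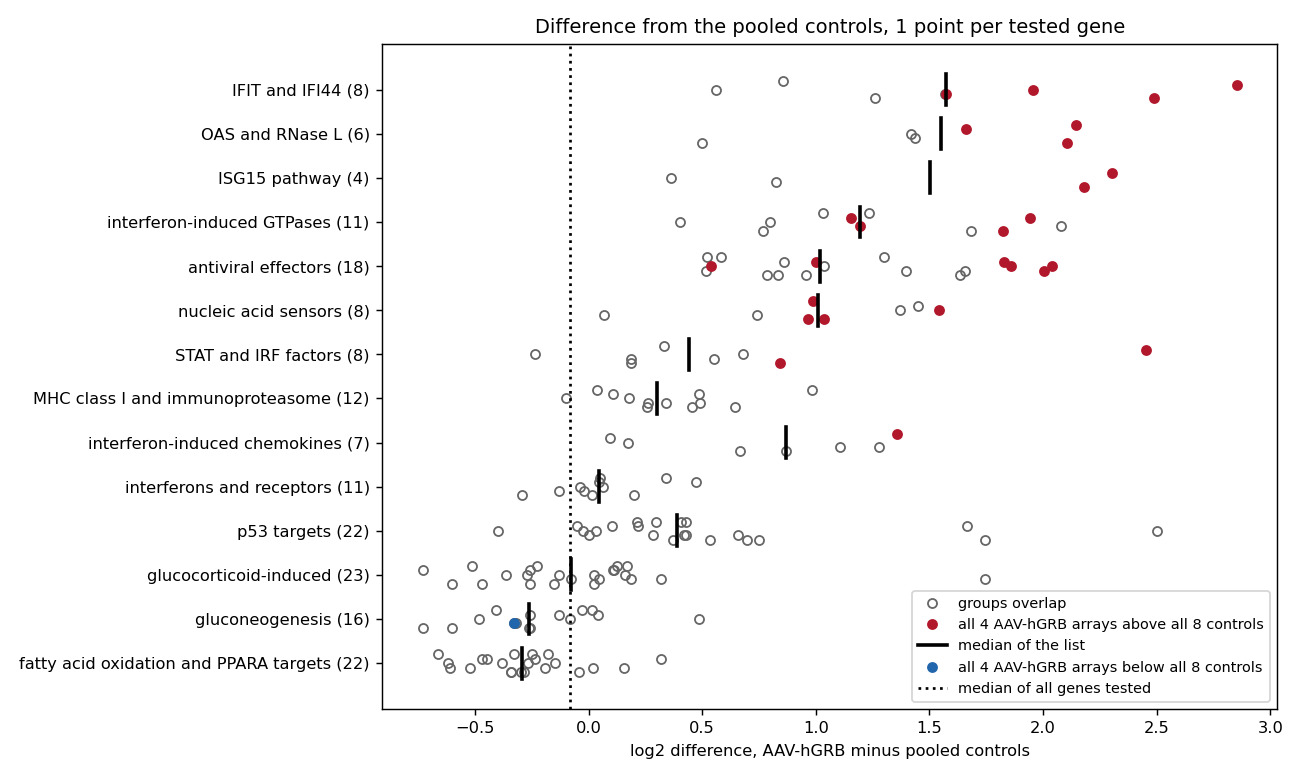
Log2 difference of AAV-hGRB from the pooled controls (horizontal axis) for every tested gene of 14 lists (number tested in parentheses), 1 point per gene at its brightest probe. Filled red points have all 4 AAV-hGRB arrays above all 8 controls and blue points all below, open points overlap, black bars are list medians, and the dotted line is the median of all genes tested (-0.08). The IFIT, OAS and ISG15 lists have medians near 1.5, and the MHC class I list, the interferons and the metabolic lists lie near or below 0.5.

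At the start of the pathway differences were small. Of 16 interferons, receptors and signalling genes 11 were tested and 7 were positive, with a median of 0.05, which was -0.04 with normexp background correction, and 0 were above all controls. Ifng, made by T and NK cells, differed by 0.47 (SE 0.39), Tyk2 by 0.20 (SE 0.19) and Socs1, the feedback inhibitor of the Jak kinases, by 0.34 (SE 0.35), none past the threshold. Ifna1 read -3.86 to -2.14 in AAV-hGRB and -4.10 to -0.90 in the controls. A further 4 members were too dim to be tested, and tissue RNA cannot show brief or local production.

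Among the 8 STAT and IRF factors 7 were positive (median 0.44), and Irf7 and Irf9 were above all controls. Irf9, the DNA-binding part of the complex, read 2.71, 2.98, 2.70 and 2.34 against 1.54 to 2.28, a difference of 0.84 (SE 0.17; limma adjusted p = 0.208); it is named after its values were seen, as is Stat2. The dimmer Irf9 probe differed by 0.90 (SE 0.29) and overlapped the controls. Stat2 differed by 0.68 (SE 0.34), with AAV-GFP replicate 3 at 4.09, above all AAV-hGRB arrays, and by 0.87 without that array. Within slide 6 the median of the 8 factors was -0.19, and within slide 5 it was 0.71.

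The 8 nucleic acid sensors were all positive (median 1.01), and 4 were above all controls: Ddx58, Adar, Eif2ak2 and Ifi204. Eif2ak2, the kinase PKR that halts translation when it binds double-stranded RNA, read -0.57, 0.17, -0.08 and -0.24 against -1.92 to -0.96 (0.99, SE 0.21; limma adjusted p = 0.209). Ifi204, a DNA-binding protein of the Ifi200 family, read 1.70, 2.25, 2.36 and 1.66 against 0.47 to 1.64. It differed by 1.04 (SE 0.22, limma adjusted p = 0.24), and its dimmer probes, at 1.04 and 1.50, overlapped the controls.

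The OAS enzymes make the 2′-5′-oligoadenylates that activate RNase L. All 6 tested members were positive (median 1.55) and 3 were above all controls. Oasl2 read 0.55, 2.18, 2.27 and 0.56 against -1.34 to 0.13 (2.15, SE 0.36; limma adjusted p = 0.076), and Oas1a read 0.78, 2.82, 2.89 and 1.35 against -1.34 to 0.63 (2.10, SE 0.43; limma adjusted p = 0.208). Replicates 2 and 3 read more than 1 log2 unit above replicates 1 and 4 for both genes. Oas1c, outside the list and named after its values were seen, differed by 1.66 (SE 0.31). The Oas1 genes are near-identical copies, so a probe of 1 may also read another.

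IFIT proteins bind viral RNA without the host's cap methylation. The list of IFIT genes, Ifi44 and relatives, which also holds Ifih1, had 8 of 8 members positive (median 1.57) and 4 above all controls. Ifit1 read 1.67, 4.01, 3.09 and 1.41 against -0.65 to 0.81 (2.49, SE 0.43, 5.61-fold; limma adjusted p = 0.0891). Ifit3 read 2.39, 4.54, 4.39 and 2.88 against 0.83 to 2.34 (1.96, SE 0.41; limma adjusted p = 0.208), so its lowest AAV-hGRB array is just above PBS replicate 4. Ifit2 differed by 1.57 (SE 0.28; limma adjusted p = 0.0982). The 4 tested genes of the ISG15 pathway were all positive (median 1.504), with Isg15 and Usp18 above all controls.

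Antiviral effectors were positive in 18 of 18 (median 1.02), with 6 above all controls. Cmpk2, a mitochondrial nucleotide kinase, read 0.42, 2.33, 1.33 and 0.45 against -1.66 to -0.29 (2.01, SE 0.34; limma adjusted p = 0.076), and Parp14, an ADP-ribosyltransferase, 3.47, 4.67, 4.18 and 3.50 against 2.60 to 3.45 (1.00, SE 0.24; limma adjusted p = 0.315). Both sets lie above the controls, Parp14 by a narrow margin. The dimmer Parp14 probes differed by 1.31 and 1.47 and overlapped the controls. Mx1, an interferon-induced GTPase, differed by 1.64 (SE 0.43) but was well above background on only 3 of 8 controls and overlapped them. Rsad2, or viperin, differed by 1.66 (SE 0.46) and also overlapped, since PBS replicate 4 read 1.63 and AAV-hGRB replicate 1 read 0.40; on a dimmer Rsad2 probe the difference was 2.22 (limma adjusted p = 0.0982) with all AAV-hGRB arrays above all controls. These 4 are named after their values were seen.

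Interferon-induced GTPases, which attack the vacuoles of intracellular pathogens, were positive in 11 of 11 (median 1.19), with 4 above all controls. Gvin1 read 1.86, 3.68, 3.62 and 2.12 against 0.36 to 1.54 (1.82, SE 0.35; limma adjusted p = 0.146). Irgm1 read 4.01, 5.04, 4.24 and 3.73 against 2.78 to 3.40 (1.16, SE 0.22; limma adjusted p = 0.149). Igtp differed by 1.19 (SE 0.27), and Gbp3 by 2.08 (SE 0.46) with AAV-GFP replicate 3 (1.95) above AAV-hGRB replicate 4 (1.73). Of the dimmer Gvin1 probes, that at 1.71 overlapped the controls and that at 2.01 did not. Gbp and Gvin genes have near-identical relatives, so their probes may read more than 1 gene.

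Antigen presentation genes stood lower in that order. MHC class I and immunoproteasome genes were positive in 11 of 12, with a median of 0.30 and 0 above all controls, and within slide 5 the median was -0.11. Tap1, which pumps peptides into the endoplasmic reticulum, differed by 0.98 (SE 0.36), Psmb8, an immunoproteasome subunit, by 0.64 (SE 0.24), Tap2 by 0.45 (SE 0.20) and H2-T23 by 0.49 (SE 0.22), none past the threshold. Replicates 2 and 3 again read highest for Tap1, Psmb8, Tap2 and H2-T23.

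The 7 interferon-induced chemokines were all positive (median 0.87). Cxcl10, which attracts activated T cells, was the 1 above all controls: it read 0.50, 2.20, 2.50 and 0.88 against -0.51 to 0.43 (1.36, SE 0.34; limma adjusted p = 0.336). Cxcl9 differed by 1.28 (SE 0.40), Ccl5 by 1.11 (SE 0.37) and Cxcl11 by 0.87 (SE 0.52), and all 3 overlapped the controls. For Cxcl11 the sign differed by slide, at 2.92 within slide 5 and -0.47 within slide 6.

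Markers of immune cells were read beside these genes, since fewer cells of a type and less RNA per cell cannot be told apart in whole liver. All 16 Kupffer cell and macrophage markers were positive (median 0.46, 0 above all controls). Their mean was 1.72, 2.30, 2.64 and 2.18 in AAV-hGRB and 0.89 to 2.12 in the controls, so the groups overlap, and their median was -0.37 within slide 5, where the interferon median was 0.51. Cd68 differed by 0.56 (SE 0.25), C1qc by 0.54 (SE 0.29), Fcgr1 by 0.77 (SE 0.37) and Marco by 0.63 (SE 0.43). T and NK cell markers were positive in 13 of 18 (median 0.35), with means of -2.61, -2.39, -2.00 and -2.41 against -3.18 to -2.40. The 1 above all controls was Cd8a, the co-receptor of cytotoxic T cells, which read -4.35, -4.17, -3.21 and -4.10 against -5.61 to -4.42 (1.06, SE 0.28; limma adjusted p = 0.381). The granzymes Gzma and Gzmb differed by 1.39 (SE 0.54) and 1.24 (SE 0.48), and Cd3g of the T cell receptor complex by 0.50 (SE 0.20). Markers of plasmacytoid dendritic cells, the main producers of interferon alpha in blood, were positive in 2 of 7 (median -0.18), and in 4 of 7 with normexp (median 0.008). The part of these cells in the interferon genes was not tested.

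**Figure D3:**
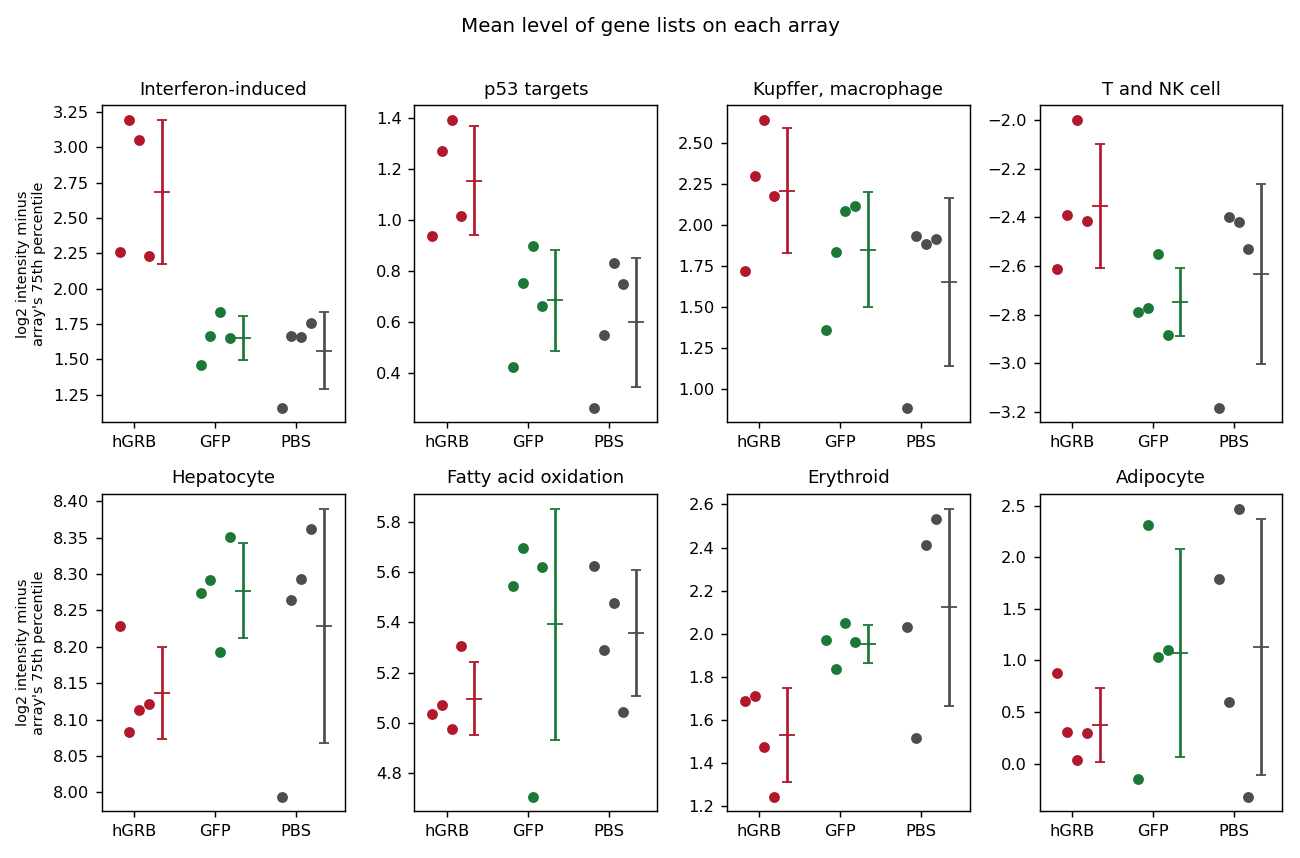
Mean level of 8 gene lists on each array (log2 scale relative to the 75th percentile, own scale per panel), with the group mean and SD over 4 arrays beside the points. The interferon-induced and p53 lists have all AAV-hGRB arrays above all controls, Kupffer and T cell markers overlap with PBS replicate 1 low, and adipocyte markers vary by more than 2 units among controls.

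Targets of p53, the damage-response factor, had a higher list mean on all 4 AAV-hGRB arrays than on any control. Of 22 tested, 19 were positive (median 0.39), although at their brightest probe 0 were called and 0 were above all controls singly. Their mean was 0.94, 1.27, 1.39 and 1.02 in AAV-hGRB, 0.43, 0.75, 0.90 and 0.66 in AAV-GFP and 0.26, 0.55, 0.83 and 0.75 in PBS. The lowest AAV-hGRB mean thus lay just above AAV-GFP replicate 3. Phlda3, an inhibitor of Akt, read 1.15, 2.19, 2.70 and 1.89 against -0.35 to 1.17 (1.67, SE 0.33; limma adjusted p = 0.152). Cdkn1a, the cell cycle inhibitor p21, read -0.65, 0.19, 0.24 and 0.38 against -2.63 to -0.35 (1.74, SE 0.41; limma adjusted p = 0.315). Phlda3 overlapped through AAV-GFP replicate 3 (1.17), and Cdkn1a through AAV-GFP replicate 4 (-0.59) and PBS replicate 4 (-0.35), both above AAV-hGRB replicate 1. Mdm2, the ligase that degrades p53, differed by 0.66 (SE 0.23). On a dimmer Mdm2 probe the difference was 0.82 (SE 0.21, limma adjusted p = 0.381), with all AAV-hGRB arrays above all controls. Eda2r, a receptor of the TNF family, had a measured difference of 2.50 (SE 0.60) that was 0.70 with normexp, and only 2 of 8 controls and 0 of 4 PBS arrays were well above background. The median was 0.19 within slide 5 and 0.45 within slide 6.

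No gene passed the threshold in the other direction. The genes below all controls (67 of 18890, 0.355%) with the lowest p were Krt14, Gapdhs, Olfr100, Bglap3, Popdc2, Mettl7a, Slc25a10, Msgn1, Prodh2 and Bglap. Krt14, a keratin of basal epithelial cells, read -2.73, -3.39, -3.42 and -2.95 against -2.42 to -1.14, a difference of -1.23 (SE 0.26; limma adjusted p = 0.209). Its groups are separate, with AAV-hGRB replicate 1 close to PBS replicate 4. Most of the 10 were dim and read genes that liver is not known for, such as the olfactory receptor Olfr100 (-1.23) and the osteocalcins Bglap3 (-1.10) and Bglap (-1.51, well above background on 1 of 4 AAV-hGRB arrays). Popdc2 (-0.71) turned to 0.02 with normexp background correction, and the dimmer of the 2 Gapdhs probes differed by -0.24 where the brighter differed by -0.81.

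The brighter ones among them are liver metabolic genes. Slc25a10, the mitochondrial dicarboxylate carrier, read 5.70, 5.44, 5.36 and 5.53 against 5.84 to 6.63 (-0.64, SE 0.18; limma adjusted p = 0.521). Mettl7a, a methyltransferase-like protein of lipid droplets, read 0.66, 0.54, -0.14 and 0.73 against 0.91 to 1.49 (-0.71, SE 0.19; limma adjusted p = 0.441). Prodh2, hydroxyproline dehydrogenase, read 5.57, 5.07, 5.31 and 5.28 against 5.58 to 6.07 (-0.54, SE 0.16, limma adjusted p = 0.53). The slightly dimmer Prodh2 probe differed by -0.50 (SE 0.17, limma adjusted p = 0.744) and overlapped the controls. Prodh, which starts the breakdown of proline, and Aldh4a1, which finishes both routes, were below all controls as well, at -0.73 (SE 0.22) and -0.42 (SE 0.17); they were picked after their values were seen. Prodh read 4.91, 5.23, 5.03 and 4.83 against 5.24 to 6.39, and Aldh4a1 read 4.80, 4.91, 4.92 and 4.89 against 4.94 to 5.78.

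**Figure D4:**
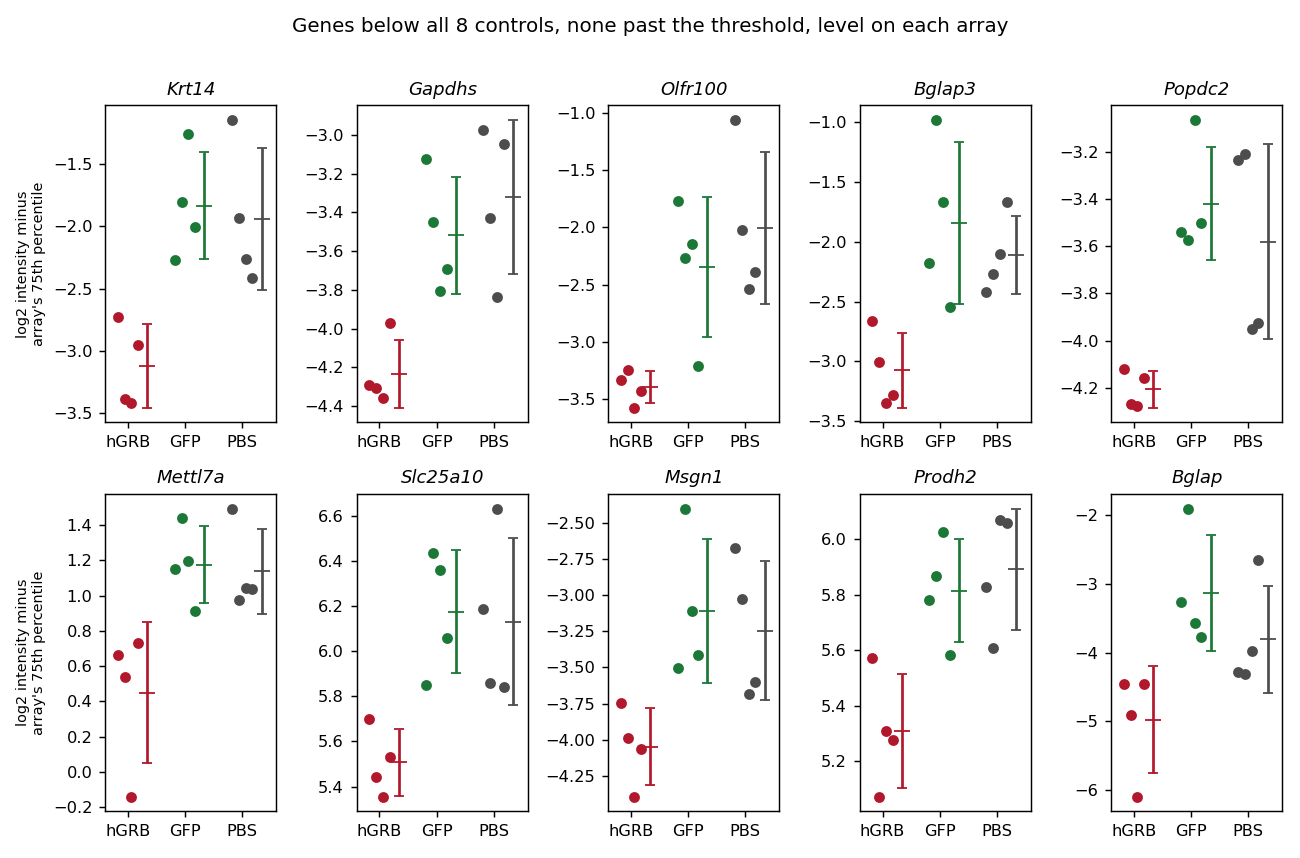
Level of the 10 named genes below all controls on each array (log2 scale relative to the 75th percentile, own scale per panel), with the group mean and SD over 4 arrays beside the points. All 4 AAV-hGRB points lie below the 8 controls in every panel, and the gap is small beside the spread of the controls in most.

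Differences in liver metabolism were small. Fatty acid oxidation genes and targets of Ppara were negative in 19 of 22, with a median of -0.29 beside -0.08 for all genes, and with 0 below all controls. Acaa1b, a peroxisomal thiolase, differed by -0.61 (SE 0.17; limma adjusted p = 0.486), Acaa1a by -0.30 (SE 0.14) and Cpt2, the inner carnitine transferase, by -0.34 (SE 0.18). AAV-GFP replicate 3 had the lowest list mean of all arrays (4.71), below the AAV-hGRB range of 4.97 to 5.30, and without it the median was -0.38. With quantile normalization the median was -0.13. Gluconeogenic genes were positive in 3 of 16 (median -0.26), and in 5 with quantile normalization (median -0.078). Of these Creb3l3, a hepatic transcription factor, was below all controls at -0.33 (SE 0.15), Gpt, alanine aminotransferase, stood at -0.48 (SE 0.22) and Pcx, pyruvate carboxylase, at -0.32 (SE 0.17). The 10 hepatocyte markers had a median of -0.12, which was 0.01 with quantile normalization.

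Glucocorticoid-induced genes, tested in livers without their receptor, went both ways: 11 of 23 were positive, with a median of -0.08 that was 0.07 with quantile normalization. Fkbp5, a chaperone of GR, differed by 0.16 (SE 0.52), Tsc22d3, known as GILZ, by 0.02 (SE 0.29) and the clock gene Per1 by -0.27 (SE 0.46). Fkbp5 read -0.41, -1.67, -1.77 and -2.30 in AAV-hGRB and -2.95 to 0.17 in the controls, so its controls alone spanned over 3 units. The signs of Fkbp5, Tsc22d3 and Per1 turn under alternatives given at the end. Tat, tyrosine aminotransferase, was lower by a difference of -0.60 (SE 0.21; limma adjusted p = 0.744). The largest difference of the list was that of Cdkn1a, also given among the p53 targets, at 1.74 (SE 0.41, limma adjusted p = 0.315).

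Pooling the controls averages over genes on which they disagree. G6pc, glucose-6-phosphatase, differed by -1.38 from AAV-GFP and by -0.08 from PBS, with AAV-GFP 1.29 above PBS. Pck1, the gateway enzyme of gluconeogenesis, differed by -0.62 and 0.10, and Angptl4, a lipase inhibitor, by -1.02 and 0.08. In G6pc, Pck1 and Angptl4 it is AAV-GFP that stands apart, high against both other groups. For neutrophil genes the controls parted the other way: S100a8, a subunit of calprotectin, differed by 0.88 from AAV-GFP and -0.41 from PBS, the receptor Cxcr2 by 0.75 and -0.25, and the granule enzyme Mpo by -0.12 and -1.11. None of these differences passed the threshold in the 3-group limma fit.

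**Figure D5:**
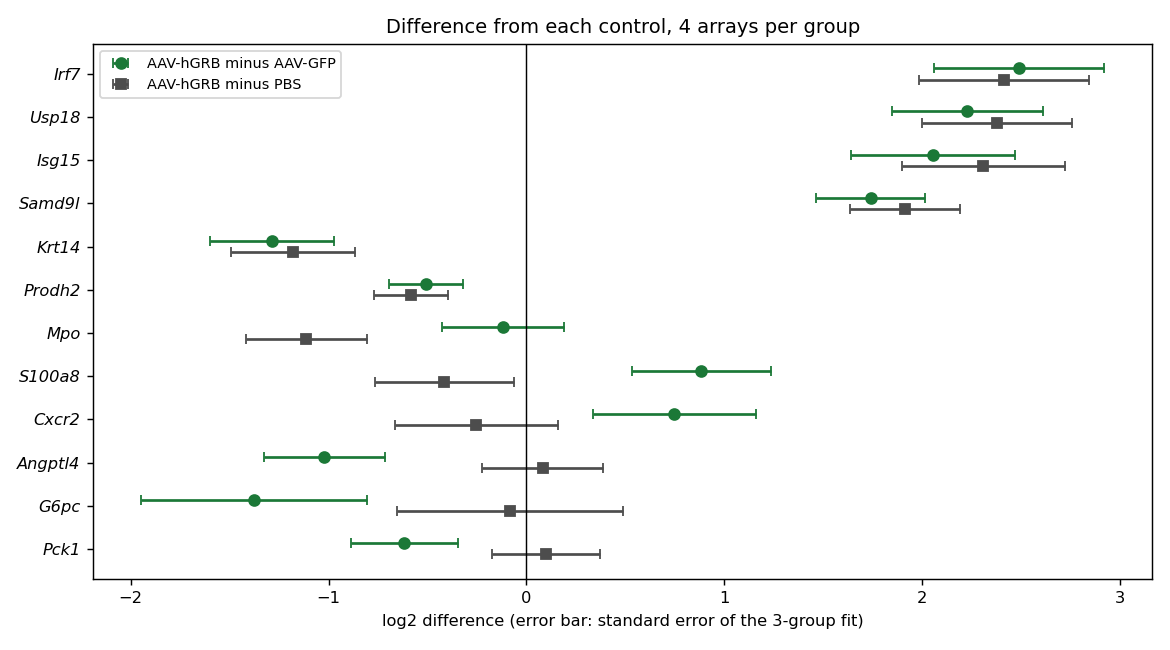
Log2 difference of AAV-hGRB from AAV-GFP (circles) and from PBS (squares) with the standard error of the 3-group fit, for 12 genes; both comparisons share the 4 AAV-hGRB arrays. The interferon genes Irf7, Usp18, Isg15 and Samd9l and the lower genes Krt14 and Prodh2 have both differences on the same side. S100a8, Cxcr2, Angptl4 and Pck1 have differences of opposite sign. Mpo and G6pc are negative against both controls but unequal in size, with Mpo at -0.12 against AAV-GFP and G6pc at -0.08 against PBS.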

How the data were processed

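The deposited scanner files give linear spot intensity. It had been background-subtracted by Feature Extraction, version 9.5.3.1 per the file headers and 9.5 per the submitters' processing notes, and the array design uses mouse build mm7. The deposited series matrix repeats these intensities (520548 of 520548 values equal within a relative 1e-06), and every column carries a sample label.

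Control spots (1639 per array) and outlier spots were left out, the log2 intensity of spots of 1 probe was averaged, and the 75th percentile of each array was subtracted, so the log2 values are computed here from the intensity the authors deposited. The 26605 of 41174 probes with at least 4 of 12 arrays well above background were tested. limma 3.58.1 (R 4.3.3, statmod 1.5.0, data.table (1.17.8)) compared 4 AAV-hGRB arrays with 8 controls taken as 1 group, with 10 residual degrees of freedom. A 3-group fit gave the difference from each control. P-values are two-sided and adjusted by the Benjamini-Hochberg method across the tested probes (threshold 0.05). The fit was run on 10 simulated data sets, each with 100 probes changed 2-fold and 100 changed 4-fold. It called 32.2% of the 2-fold and 79.5% of the 4-fold changes, with a mean of 8.2 false calls per set.

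The brightest tested probe stands for a gene (18890 genes). Names came from RefSeq through the design's accessions (22951 probes by systematic name, 131 by another accession), and 18092 probes kept the design's name. Named genes are those called with 4 AAV-hGRB arrays outside the range of the 8 controls, filled up by lowest unadjusted p to 10 in each direction, 6 glucocorticoid-related genes, and up to 4 members of each list, or up to 8 called ones. Predicted and clone names were skipped; genes named beyond the rule are marked in the text, and some genes are not reported here. The members and lists were chosen with earlier results of these data known. Alternatives were other scaling, background correction, filters, blocks, array weights and each array left out.

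Replicate numbers were checked as possible pairs: of 12 same-numbered pairs across groups, 5 had deviations correlated above 0.1 (range -0.434 to 0.594), so the numbers were not used as pairs.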

Additional observations from a re-analysis of the deposited data

Results flagged for a closer look

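Of 363 sets of 4 arrays examined for an array far from the other 3, 26 held one, where chance gives about 1 in 20; AAV-GFP replicate 3, the dimmest array, accounts for 10 of them. It read high, against the other 3 AAV-GFP arrays, for Oas1c (-0.96), BC013672 on its brighter probe (-1.49), Popdc2 (-3.06), Ccl5 (2.04), Stat2 (4.09), Gzmb (-2.84) and Pck1 (9.06), and low for Eif2ak2 (-1.92), Tap1 (-2.59) and the mean of the fatty acid oxidation list (4.71).

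PBS replicate 1 was low for the means of the interferon-induced (1.16), T and NK cell (-3.18) and Kupffer cell (0.89) lists and for Gzmb (-5.76), and high for Mettl7a (1.49). PBS replicate 4 was high for Cdkn1a (-0.35), Dmgdh (6.20) and Aass (6.22).

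AAV-GFP replicate 2 was high for the called Ddx58 probe (-5.01), Gstz1 (6.46) and Rsad2 (0.10), replicate 1 low for Cfd (4.83) and replicate 4 high for Parp11 (-1.47). In AAV-hGRB, replicate 3 was high for Cd3g (-2.49) and low for the mean of the cholangiocyte list (-1.20), and replicate 2 was high for Krt23 (0.42).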

How the results depend on the processing

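The direction of the 8 called probes and the sign of the interferon median (0.67 to 1.12 over 22 alternatives) were kept, and the difference from both controls had 0 calls in all alternatives run. The count of 8 probes called higher was 4 with median scaling, 13 with quantile normalization, 1 without a filter on dim probes, 5 with a filter of 8 arrays, 1 with 3 groups in the fit, 0 with slides as fixed blocks and 94 with array weights, which also gave 4 called lower, and 0 to 24 with 1 array left out. With the replicate number as a block it was 7, 3 of them shared with the 8; the numbers do not pair the samples, and 4 of 12 samples correlated best with their own number. With normexp it was 9, 3 of them among the 8, and the signs of Popdc2 (0.020, from -0.71), Retn (0.0016, from -1.24), Tsc22d3 (-0.085) and Ifna1 (0.12) turned. With quantile normalization the sign of Dmgdh (0.034) turned, and with slide blocks that of Per1 (0.13). Leaving out 1 array gave -0.27 to 0.20 for Tsc22d3, -0.21 to 0.43 for Fkbp5, -0.0029 to 0.40 for S100a8 and -0.0053 to 0.099 for Nr3c1. The cause was not tested. The median of all probes was -0.06, and 0.04 with normexp. Dim probes, such as those of BC013672, Ifi44 and Ddx58, have bounds or few measured controls. The control-group alternative could not be run for the difference from each control.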

Other observations

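Other genes above all controls, picked after their values were seen and each short of the threshold, included Trim34a (0.97, SE 0.25) and Trim12c (1.14, SE 0.29), TRIM proteins encoded near Trim30a, the ADP-ribosyltransferase Parp11 (0.76, SE 0.17), and Apaf1, the scaffold of the apoptosome (0.57, SE 0.15). The dimmer Trim34a probes differed by 0.08 (SE 0.34) and 0.93 (SE 0.46) and overlapped the controls. Apaf1 read -2.27, -2.14, -1.85 and -2.33 in AAV-hGRB against -2.90 to -2.48 in the controls. Gsta1, a glutathione transferase, differed by 1.09 (SE 0.41) and the mitotic topoisomerase Top2a by 0.59 (SE 0.22), both overlapping the controls.

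Below all controls stood Aass, which starts lysine breakdown (-0.46, SE 0.18), Gstz1 of tyrosine breakdown (-0.34, SE 0.15), Dmgdh of choline breakdown (-0.15, SE 0.13), the complex I subunit Ndufa9 (-0.32, SE 0.14) and the ATP synthase subunit Atp5b (-0.25, SE 0.13), again none past the threshold. The dimmer Atp5b probes differed by 0.095 (SE 0.75) and 0.046 (SE 0.54), the other way, and overlapped the controls. Ndufa9 read 5.73, 5.72, 5.61 and 5.68 against 5.74 to 6.29. The hepcidins, which limit iron export, were lower on average and overlapped the controls: Hamp2 differed by -1.58 (SE 0.39; limma adjusted p = 0.331), at -1.05 against AAV-GFP and -2.11 against PBS, and Hamp by -0.80 (SE 0.32).

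Markers of other liver cells had no common direction: endothelial (median 0.11) and stellate or fibroblast (0.05) genes were each positive in 6 of 10, while erythroid, adipocyte and cholangiocyte genes were mostly negative. None of 4 tested erythroid genes was positive (median -0.54), with Alas2 of haem synthesis at -0.49 (SE 0.18), Slc4a1, the red cell anion exchanger, at -0.80 (SE 0.32) and the globin Hba-a1 at -0.59 (SE 0.33). None of 5 adipocyte genes was positive (median -0.94), with Retn at -1.24 (SE 0.45), Adipoq at -1.22 (SE 0.65) and Cfd at -0.94 (SE 0.67), but that median was 0.11 within slide 5 and -2.34 within slide 6. Normexp gave a median of -0.21 with 1 positive. Retn, well above background on 1 of 4 AAV-hGRB arrays, stood at 0.0016 with normexp. Cholangiocyte markers were positive in 2 of 9 (median -0.35), with Muc1 at -0.93 (SE 0.33) and Krt23 at -1.10 (SE 0.52), but in 4 of 9 with normexp (median -0.056).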
